A study of Mus musculus with 4 samples.

Results

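Liver RNA was examined for 8 genes of lipid droplet growth and fat breakdown: the CIDE genes Cideb and Cidec, and the lipolysis genes Pnpla2, Pnpla3, Abhd5, G0s2, Lipe and Mgll. All 8 members were found by gene name or by transcript accession on the array, with 13 of its 41174 probes, and all 8 passed the filter on dim signals among 18043 genes tested. The livers labelled Plin2-ASO came from 4 male C57BL/6 mice that received an antisense oligonucleotide (ASO, a short nucleic acid that binds a transcript to lower its level) against perilipin 2, the coat protein Plin2 of lipid droplets. The control livers came from 4 male C57BL/6 mice that received a scrambled control ASO. Both groups ate a high-fat diet and had 25 mg/kg of oligonucleotide in the abdominal cavity 2 times a week over 4 weeks. The age of the mice is not given in the sources used here. Each of 4 dual-colour arrays paired 1 mouse labelled Plin2-ASO, whose liver RNA was in green (Cy3), with 1 control mouse in red (Cy5). Arrays 1 to 4 set mice 6, 7, 9 and 10 against control mice 1, 2, 4 and 5. The dyes were never swapped, and a probe's dye effect and the treatment cannot be told apart.

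Hepatocytes store triglyceride in droplets bounded by a protein coat. CIDE proteins sit where droplets touch and move lipid from the smaller to the larger: Cidec (also Fsp27) enlarges droplets in fat cells and in fatty liver, while Cideb is the CIDE protein of healthy hepatocytes and helps load lipid onto very low density lipoprotein. Breakdown runs in steps: Pnpla2 (adipose triglyceride lipase, ATGL) takes the first fatty acid off triglyceride, Lipe (hormone-sensitive lipase) the next off diacylglycerol, and Mgll the last off monoacylglycerol. Abhd5 (CGI-58) switches Pnpla2 on and G0s2 inhibits it. Pnpla3 is a close relative of Pnpla2 on droplets, and a coding variant of human PNPLA3 is linked to fatty liver in people.

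The following probes show what was measured for the genes on which the results turn. All are 60 bases long, read 5′ to 3′ on the strand of the transcript, and located as the files locate them, in the mouse build mm7. No letters are capitalised, since no part of a probe is set apart.
Lipe, probe used, minus strand, chr7:22170761-22173014: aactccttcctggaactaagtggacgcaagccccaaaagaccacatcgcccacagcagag
Lipe, other probe, minus strand, chr7:22170615-22170674: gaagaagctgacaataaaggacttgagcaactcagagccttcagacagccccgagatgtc
Mgll, probe used, plus strand, chr6:88898474-88900777: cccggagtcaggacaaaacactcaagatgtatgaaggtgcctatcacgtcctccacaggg
Cideb, only probe, minus strand, chr14:50622503-50622562: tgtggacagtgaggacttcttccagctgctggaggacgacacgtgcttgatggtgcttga
Pnpla2, other probe, plus strand, chr7:137876465-137876524: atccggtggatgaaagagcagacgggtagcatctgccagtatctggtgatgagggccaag
The placement of the Lipe probe used covers 2254 bases and that of the Mgll probe used 2304 bases of the genome, so the target of each is split in the genome. Each of these probes has at least 1 reading frame with no stop codon. The Pnpla2 probe used lies at chr7:137877295-137877354, and Pnpla2 is given by its other probe because the results of the 2 probes differ. The Cidec probe lies at chr6:113585627-113585686, and the exons of mm7 were not used here.

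Plin2 itself, which the oligonucleotide targets, was not below the control level. Its log2 ratios were 0.24, 0.15, 0.83 and 0.36 on arrays 1 to 4 (mean 0.40 ± 0.15, SE, n = 4, adjusted p = 0.156 by limma). The groups are therefore named by their labels, and exchanged dyes or labels would turn round every direction below. The hepatocyte markers were bright in both groups: the mean log2 signal of the 15 of 16 that could be tested was 15.51 to 15.86 in the livers labelled Plin2-ASO, against 15.84 to 16.04 in the control livers. Of these 15 markers 3 fell and 1 rose, or 26.7% against 9.75% of all genes, and 10 had a log2 ratio below 0. The marker that rose, G6pc, was 1.93-fold higher (adjusted p = 0.00816 by limma). Albumin (Alb) was 3.25-fold lower and the plasma protein fetuin-A (Ahsg, on 3 arrays) 6.51-fold lower (adjusted p = 0.00173 each by limma). Array 3 stood apart, with a mean correlation of 0.33 with the ratios of the other arrays across genes, against 0.51 to 0.66 for the others. Outlier spots made up 7.61% of that array and 1.5% to 3.83% of the others. Its liver labelled Plin2-ASO also had high signals of several fat cell markers, whose values stand beside Cidec below. No spot was saturated, and in each channel 59.8% to 70.1% of the probes exceeded background clearly. Both ends of that range come from array 3, with the lower one in its liver labelled Plin2-ASO. Median signals of that liver and its control were 244 and 637. In the same order, arrays 1, 2 and 4 gave 330 and 375, 392 and 256, and 499 and 260. Ratios correlated with probe GC content at 0.06, 0.08, -0.28 and 0.26 for arrays 1 to 4. Whether these differences shaped the ratios of array 3 was not tested. In whole liver, fewer cells of a type and less RNA per cell cannot be told apart.

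Among the 8 genes, Lipe alone passed the test over all genes, on the 3 arrays that measured it, and it was higher in the livers labelled Plin2-ASO. Of the 18043 genes, 9.75% passed in either direction, with 3.67% higher and 6.07% lower in the livers labelled Plin2-ASO. The log2 ratios of 6 genes were above 0 and those of Cidec and Pnpla2 below 0, with a median of 0.08, against a median of -0.03 over all genes tested. Cidec had the lowest mean, -1.42, at percentile 1 of all genes, and did not pass. With array 3 left out, 4 of the 8 genes passed (Lipe, Cideb and Mgll higher, Cidec lower), while the share of all genes that passed was then 32.7%, with 12.4% higher and 20.3% lower. The calls are from limma with Benjamini-Hochberg adjustment over all genes at 0.05.

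**Figure D1:**
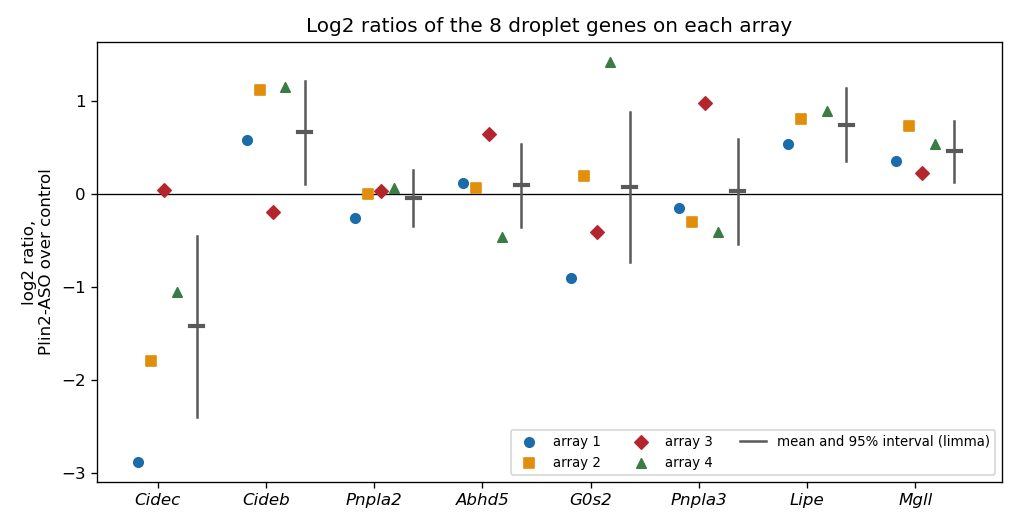
Log2 ratio of Plin2-ASO over control (vertical axis) for the 8 genes on each of the 4 arrays (points), with the limma mean and its 95% interval (grey). Cidec is lowest on array 1 at -2.88 and near 0 on array 3, Lipe is above 0 on all 3 arrays on which its probe was measured, and Pnpla2 stays between -0.26 and 0.06.

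The CIDE genes lay on opposite sides of 0. Cidec had normalised log2 signals of 9.10, 11.40, 11.77 and 10.48 in the livers labelled Plin2-ASO on arrays 1 to 4, against 11.98, 13.20, 11.73 and 11.54 in the control livers. It was lower in the liver labelled Plin2-ASO on arrays 1, 2 and 4 and level on array 3, and the groups overlapped. Its mean log2 ratio was -1.42 ± 0.41 (SE, n = 4, 95% interval -2.40 to -0.45, 2.68-fold lower, unadjusted p = 0.0105, adjusted p = 0.0771 by limma). Within groups it was the most variable of the 8 genes, at 10.69 ± 1.19 in the livers labelled Plin2-ASO, against 12.11 ± 0.75 in the control livers (SD, n = 4 each). Without array 3 the mean was -1.91 ± 0.29 (adjusted p = 0.00231 by limma). Without arrays 1, 2 and 4 in turn it was -0.94, -1.30 and -1.55, and Cidec did not pass (adjusted p = 0.260, 0.264 and 0.140 by limma).

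Cideb had normalised log2 signals of 14.51, 14.58, 13.99 and 14.61 in the livers labelled Plin2-ASO, against 13.93, 13.46, 14.18 and 13.46 in the control livers. The livers labelled Plin2-ASO were brighter on arrays 1, 2 and 4 and dimmer on array 3. The mean log2 ratio was 0.66 ± 0.24 (SE, n = 4, 1.58-fold, unadjusted p = 0.0249, adjusted p = 0.126 by limma), and 0.95 ± 0.15 without array 3 (adjusted p = 0.00262 by limma). With array 1, 2 or 4 left out instead, Cideb did not pass (adjusted p = 0.340, 0.413 and 0.335 by limma). On the same array the log2 ratio of Cideb exceeded that of Cidec by 3.46, 2.92 and 2.21 on arrays 1, 2 and 4, and the difference was -0.23 on array 3. An exact sign-flip test of the mean difference of 2.09 ± 1.63 (SD, n = 4) gave p = 0.25, two-sided, where 0.125 is the smallest p that 4 arrays allow.

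Fat cell markers as a list also read differently on array 3. Of 16 adipocyte markers 12 could be tested, of which 2 rose (Car3 and Cfd, each higher on all 4 arrays) and none fell. The share was 16.7%, against 9.75% of all genes. Car3 was bright in every liver of both groups, with log2 signals of 15.48 to 17.71. Its ratio on array 3, 1.08, was below the 1.42 and 1.46 of arrays 1 and 2. The median log2 ratio of the 12 markers was 0.93 on array 3, against -0.11, -0.11 and 0.19 on arrays 1, 2 and 4. On array 3 the ratio was above 0 for 8 of the 12 and below 0 for 4, and array 3 was the highest of the 4 arrays for 8 markers and the lowest for 2. Adiponectin (Adipoq), a fat cell hormone, had a log2 signal of 11.90 in mouse 9 on array 3 and 8.28 to 8.76 in the other livers labelled Plin2-ASO, against 7.80 to 8.30 in the control livers. Ucp1, the uncoupling protein of brown fat, was at 12.48 in mouse 9 and its log2 ratio was 5.04 there, while arrays 1, 2 and 4 gave -0.39 to -0.33. Log2 ratios on array 3 were 1.96 for Plin1 and 1.69 for Fabp4, and on the others -0.57 to -0.10 for Plin1 and -2.17 to -1.16 for Fabp4. The mean log2 signal over the 12 markers ran from 10.05 to 11.69 in the livers labelled Plin2-ASO, against 10.02 to 10.13 in the control livers. The markers below 0 on array 3 were Pck1 at -0.78 and Adrb3 at -0.46, each its lowest array, Pparg at -0.27 and the leptin gene Lep at -0.13. Pck1 is also a hepatocyte gene and stands in that list too. The part of fat cell RNA in the Cidec and Cideb values of array 3 was not tested. Cidec had its highest log2 ratio on array 3, at 0.04, so leaving that array out lowers its mean whatever the cause.

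**Figure D2:**
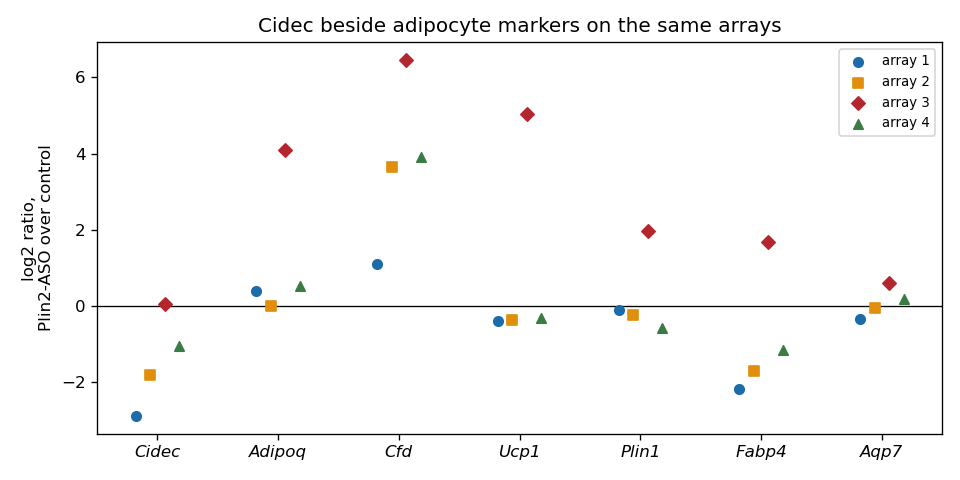
Log2 ratio of Plin2-ASO over control (vertical axis) of Cidec and 6 adipocyte markers on each array (points). On array 3 (red diamonds) Adipoq, Ucp1, Plin1 and Fabp4 lie well above the other arrays, and Cidec is at 0.04.

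Lipe, the diacylglycerol step, rose in the livers labelled Plin2-ASO. The probe used had normalised log2 signals of 11.09, 11.06 and 10.80 in the livers labelled Plin2-ASO on arrays 1, 2 and 4, against 10.55, 10.25 and 9.91 in the control livers. Its spot on array 3 was marked as an outlier and set to missing, and the groups did not overlap on the other 3 arrays. The mean log2 ratio was 0.74 ± 0.16 (SE, n = 3, 95% interval 0.35 to 1.13, 1.67-fold higher, adjusted p = 0.0413 by limma). The other Lipe probe was measured on all 4 arrays, at 10.55, 10.42, 10.33 and 10.41 in the livers labelled Plin2-ASO, against 9.90, 9.42, 9.43 and 9.50 in the control livers. It was brighter in every liver labelled Plin2-ASO than in any control liver. Its log2 ratios of 0.65, 1.00, 0.90 and 0.91 averaged 0.86 (adjusted p = 0.00994 by limma when it stood for the gene, a choice made after the values were seen). Levels that did not overlap between groups were found for 16.6% of the genes measured on all arrays, with 5.9% higher and 10.7% lower in the livers labelled Plin2-ASO. Leaving out array 1, 2 or 4 left the probe used with 2 arrays and ended its call (adjusted p = 0.177, 0.242 and 0.154 by limma). A probe that carries an older name of Lipe, 4933403G17Rik, met neither part of the member rule and had log2 ratios of 0.06, 0.19, -0.08 and 0.10. It was dim, with log2 signals of 7.71 to 8.30 in the livers labelled Plin2-ASO and 7.59 to 8.38 in the control livers. It lies at chr7:22187578-22187637, away from the 2 Lipe probes.

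Mgll, the monoacylglycerol step, had a positive log2 ratio on every array. The probe used read 14.36, 14.90, 14.70 and 14.36 in the livers labelled Plin2-ASO, against 14.01, 14.17, 14.47 and 13.82 in the control livers. The ranges overlapped, although each liver labelled Plin2-ASO exceeded the control liver of its array. The mean log2 ratio was 0.46 ± 0.14 (SE, n = 4, 1.37-fold, unadjusted p = 0.0128, adjusted p = 0.0865 by limma), and 0.54 ± 0.13 without array 3 (adjusted p = 0.0143 by limma). With array 1, 2 or 4 left out instead, Mgll did not pass (adjusted p = 0.297, 0.379 and 0.228 by limma). A second bright probe read 0.13, 0.67, 0.46 and 0.65, and its levels of 13.52 to 14.03 in the livers labelled Plin2-ASO did not overlap the 12.93 to 13.38 of the control livers. The third Mgll probe was well above background in 1 of the 8 livers, a control liver, so it was not used. The same sign on all 4 arrays was seen for 34.3% of the genes measured on all of them, and for Mgll alone among the 7 droplet genes measured on all of them.

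**Figure D3:**
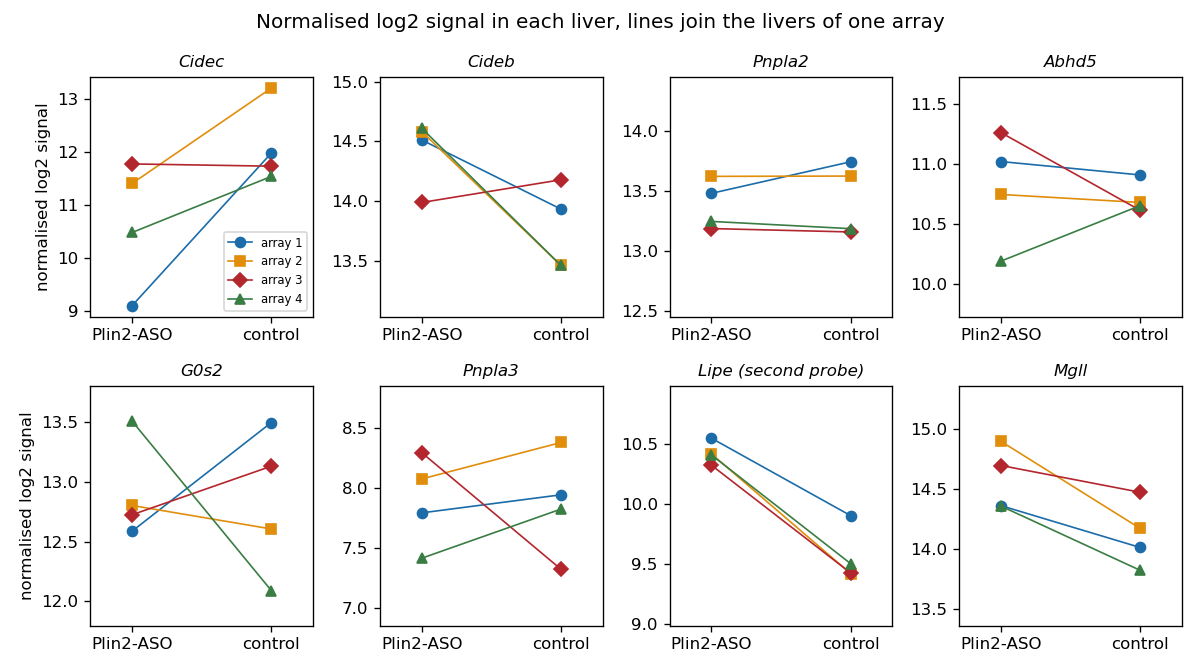
Normalised log2 signal (vertical axis) in each liver, livers labelled Plin2-ASO on the left and control livers on the right, with lines joining the livers of 1 array. Lipe is shown by its other probe, which was measured on all 4 arrays, and separates the groups, while G0s2, Abhd5 and Pnpla3 cross.

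Pnpla2, the enzyme of the triglyceride step, gave values that depended on the probe. The probe used read 13.48, 13.62, 13.19 and 13.25 in the livers labelled Plin2-ASO, against 13.75, 13.63, 13.16 and 13.19 in the control livers. The groups overlapped, with a mean log2 ratio of -0.04 ± 0.13 (SE, n = 4, 95% interval -0.35 to 0.26, adjusted p = 0.860 by limma). The other probe read 0.04, 0.77 and 0.76 on arrays 1, 2 and 4 and was marked as an outlier on array 3. With its outlier spot kept, the other probe read -0.31 on array 3. On arrays 1, 2 and 4 the Lipe probe used exceeded the Pnpla2 probe used by 0.80, 0.81 and 0.83 in log2 ratio. An exact sign-flip test gave p = 0.25, two-sided, the smallest that 3 arrays allow. That gap holds for the Pnpla2 probe used only. On the same arrays the Lipe probe used read 0.53, 0.80 and 0.89, against 0.04, 0.77 and 0.76 for the other Pnpla2 probe.

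The partners of Pnpla2 varied from array to array. Its coactivator Abhd5 had normalised log2 signals of 11.02, 10.75, 11.26 and 10.19 in the livers labelled Plin2-ASO, against 10.91, 10.68, 10.61 and 10.65 in the control livers. It was highest in mouse 9 and lowest in mouse 10, so that both extremes fell in the livers labelled Plin2-ASO (mean log2 ratio 0.09 ± 0.19, SE, n = 4, adjusted p = 0.800 by limma). Its other probe gave the same array order at the extremes, with 1.27 on array 3 and -0.48 on array 4. The inhibitor G0s2 read 12.59, 12.80, 12.72 and 13.51 in the livers labelled Plin2-ASO, against 13.49, 12.60, 13.13 and 12.09 in the control livers. It was lower in the liver labelled Plin2-ASO on arrays 1 and 3 and higher on arrays 2 and 4, with ratios from -0.91 to 1.42 (mean 0.07 ± 0.34, SE, n = 4, 95% interval -0.74 to 0.89, adjusted p = 0.914 by limma). That interval leaves room for a change of either sign. The log2 ratio of Pnpla2 minus that of G0s2 was 0.64, -0.20, 0.43 and -1.36 on arrays 1 to 4. Over 6 pairs of members compared in this way, chosen with the values known, every exact sign-flip p was 0.25 or more and every adjusted p 0.5 or more.

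Pnpla3, the relative of Pnpla2, was flagged as well above background in all 8 livers, yet its signals were dim. The third Mgll probe, not used for lack of signal, read 6.80 to 7.52, which overlaps the 7.32 to 8.38 of Pnpla3. Pnpla3 read 7.79, 8.08, 8.30 and 7.42 in the livers labelled Plin2-ASO, against 7.95, 8.38, 7.32 and 7.83 in the control livers. It was lower in the liver labelled Plin2-ASO on arrays 1, 2 and 4 and higher on array 3, where the ratio was 0.97. The mean log2 ratio was 0.03 ± 0.24 (SE, n = 4, adjusted p = 0.957 by limma), and -0.29 ± 0.12 without array 3 (adjusted p = 0.0963 by limma).

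**Figure D4:**
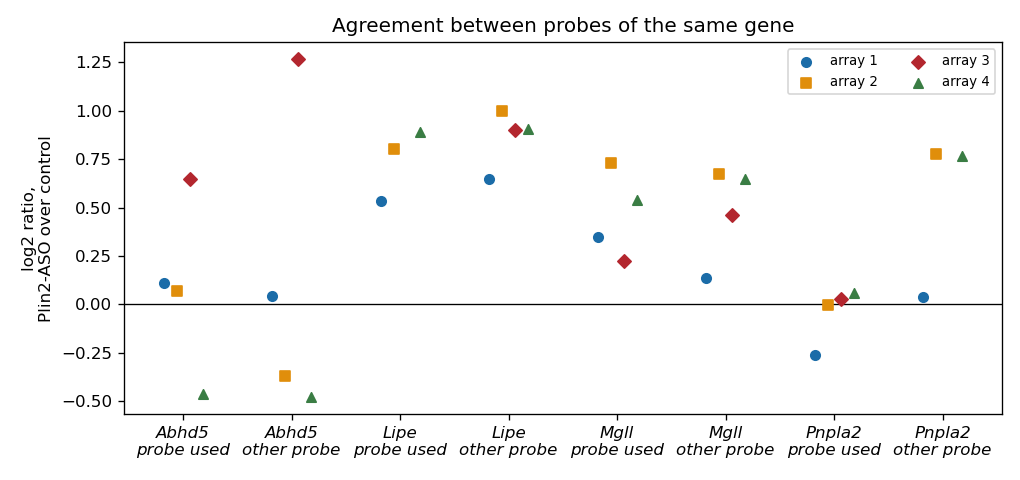
Log2 ratio of Plin2-ASO over control (vertical axis) on each array (points) for the used and the other bright probe of Abhd5, Lipe, Mgll and Pnpla2. Both probes of Lipe and of Mgll lie above 0 on every array measured, while on arrays 2 and 4 the Pnpla2 probe used is at -0.00 and 0.06 and the other at 0.77 and 0.76.

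The stretches of 250 bases before the annotated start of the gene with the lowest mean ratio, Cidec, and of the gene that passed, Lipe, are given as the upstream sequence of the genes on which the results turn. They come from RefSeq on GRCm38.p6, where all 8 members matched by symbol, and both genes have 2 annotated starts in the promoter table, of which the one farther upstream in that table is printed. Capitals mark matches to the motifs searched on both strands: the E box CACGTG, the cAMP response element TGACGTCA with its inner letters TGACG, the forkhead motif GTAAACA, the CCAAT box, the TATA box TATAAA, the GC box GGGCGG and the direct repeat 1 motif of nuclear receptors.
Cidec, minus strand, chr6:113435761-113436010: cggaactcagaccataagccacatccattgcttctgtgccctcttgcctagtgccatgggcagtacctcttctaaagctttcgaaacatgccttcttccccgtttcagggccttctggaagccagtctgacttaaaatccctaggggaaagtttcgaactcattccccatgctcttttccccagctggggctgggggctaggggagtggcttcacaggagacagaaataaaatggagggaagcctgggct
Lipe, minus strand, chr7:25395988-25396237: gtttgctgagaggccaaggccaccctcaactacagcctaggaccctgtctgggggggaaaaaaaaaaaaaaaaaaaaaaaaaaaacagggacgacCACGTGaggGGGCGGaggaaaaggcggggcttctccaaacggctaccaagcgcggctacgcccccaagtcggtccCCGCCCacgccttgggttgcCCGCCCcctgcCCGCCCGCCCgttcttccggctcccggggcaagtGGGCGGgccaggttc
None of these motifs was found before either start of Cidec, of 52.8% and 56.8% GC. The Lipe stretch, of 62.8% GC, held 6 GC boxes, of which 1 pair overlaps by 2 bases, and 1 E box. The stretch before the other Lipe start, of 58.8% GC and not printed, held 1 forkhead motif and neither a GC box nor an E box. A GC box was found in 32.7%, an E box in 6.02% and a forkhead motif in 3.17% of all 32851 such stretches, and a match is a description of the letters only. The printed Lipe stretch lies inside the annotated span of the gene, chr7:25379527-25398486, so that span begins farther upstream than either start in the table.

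Genes of like pattern were sought among the genes with symbols measured on all 4 arrays, by the root mean square difference of log2 ratios. Nearest to Cidec over 4 arrays, of 12560 genes, were Cavin2, a coat protein of caveolae, at 0.46, Rnase2a at 0.52 and the growth factor gene Igf2 at 0.56. Cavin2 read -2.15, -2.01, -0.28 and -1.46. Cavin2, Rnase2a (-0.35) and Igf2 (-0.80) had their value closest to 0 on array 3, as Cidec did, and were chosen for such likeness. Nearest to the Lipe probe used over the 3 arrays on which it was measured, of 12561 genes, were Dnah7b, Ccdc157 and Dennd5b, at 0.025 to 0.035. On array 3 these read -0.16, 0.11 and -0.57, against 0.90 for the other Lipe probe.

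The other genes of droplets and lipolysis were taken from 4 lists. In the list of droplet coat and assembly, 24 of 27 genes could be tested, of which 1 rose and 2 fell (median log2 ratio 0.16, against -0.03 over all genes). The share that passed, 12.5%, was near the 9.75% of all genes. Fitm1, which helps partition fat into droplets, was 2.10-fold higher (log2 ratio 1.07 ± 0.18, SE, n = 4, adjusted p = 0.0153 by limma). Tmem159, the seipin partner promethin, was 2.02-fold lower (-1.01 ± 0.13, adjusted p = 0.00660) and the perilipin Plin3 1.68-fold lower (-0.75 ± 0.14, adjusted p = 0.0193). For the perilipins Plin1, Plin4 and Plin5 the mean log2 ratio was 0.26, 0.30 and 0.19 (adjusted p = 0.712, 0.658 and 0.499). With array 1 or array 2 left out, limma called none of this list (5 had an unadjusted p under 0.05 each time), and with array 3 left out it called 8, or 33.3%, against 32.7% of all genes. Over all 18043 genes, 2809 had an unadjusted p under 0.05 without array 1 and 2972 without array 2. Cidea, the remaining CIDE gene, was listed and not testable here.

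Of the lipases and esterases outside the 8 genes, 17 of 20 could be tested, of which 4 rose and 1 fell, or 29.4% against 9.75% of all genes, with a median log2 ratio of 0.20. The carboxylesterases Ces1f, Ces2a and Ces1d, which cleave neutral lipids in the endoplasmic reticulum, were 29.4-fold, 2.24-fold and 1.51-fold higher (adjusted p = 0.000661, 0.00430 and 0.0283 by limma). Hepatic lipase (Lipc), which acts on lipoproteins, was 2.08-fold higher (adjusted p = 0.00987), and lipoprotein lipase (Lpl) 5.31-fold lower (-2.41 ± 0.22, SE, n = 4, adjusted p = 0.00241 by limma). Carboxylesterases share sequence, so which member a probe measured is uncertain. The lysosomal lipase Lipa read -0.43 and the patatin-like Pnpla6, Pnpla7 and Pnpla8 read 0.01, 0.03 and 0.60, and none of these passed. The numbers that passed without arrays 1 to 4 in turn were 4, 3, 8 and 4, against 351, 380, 5906 and 1005 of all 18043 genes. Without array 3 the share of this list was 47.1%, against 32.7% of all genes. Most genes of this list had ratios above 0, unlike Lpl, and macrophage markers went both ways. Of 14 macrophage markers tested 8 fell and 4 rose, or 85.7% against 9.75% of all genes, with a median log2 ratio of -0.98. Their mean log2 signal ran from 11.14 to 11.79 in the livers labelled Plin2-ASO, against 11.77 to 12.37 in the control livers. Those that rose were Cd163, Vsig4, Marco and Clec4f, with mean log2 ratios of 3.08, 2.52, 2.48 and 2.37. Among those that fell were Trem2 at -2.28, Gpnmb at -2.71 and Cd68 at -1.78. The part of macrophages in the Lpl value was not tested.

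Of 29 tested genes of lipolysis control (receptors, kinases, phosphodiesterases and carriers), 3 fell and none rose, with a median of -0.10, and the share of 10.3% was near the 9.75% of all genes. The fatty acid carrier Fabp1 was 4.02-fold lower (on 3 arrays, adjusted p = 0.00662 by limma), the cAMP phosphodiesterase Pde4b 1.96-fold lower (adjusted p = 0.00844) and the adenosine receptor Adora1 1.86-fold lower (adjusted p = 0.0443). Fabp1 is abundant in hepatocytes. Of the 15 hepatocyte markers tested 3 fell (Alb, Ahsg and Apoc3) and 1 rose (G6pc), with a median log2 ratio of -0.20. The part of a hepatocyte-wide difference in the Fabp1 value was not tested. The catalytic kinase subunits Prkaca and Prkacb, which phosphorylate Lipe, read -0.41 and 0.53 (adjusted p = 0.0805 and 0.0843). The numbers that passed without arrays 1 to 4 in turn were 1, 1, 15 and 3, and the 51.7% without array 3 stands against 32.7% of all genes. Of 18 transcription factors and coactivators tied to these genes, none passed by limma on 4 arrays, 9 had an unadjusted p under 0.05, and 7 passed without array 3, or 38.9% against 32.7% of all genes. Of all 18043 genes, 4859 had an unadjusted p under 0.05 on 4 arrays. Pparg, the receptor that drives Cidec in fatty liver of mice, read -0.84, -0.44, -0.27 and -0.39 (mean -0.48 ± 0.14, SE, n = 4, adjusted p = 0.0829), and Creb3l3, a hepatic activator of Cidec, -0.11 (adjusted p = 0.663). Of the 18 factors, 10 had a mean log2 ratio above 0 and 8 below 0. Those above 0 included Hnf4a at 0.78, Ppara at 0.55 and Rxra at 0.37 (adjusted p = 0.0732, 0.0858 and 0.101 by limma). The part of any of these factors in the Cidec value was not tested.

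**Figure D5:**
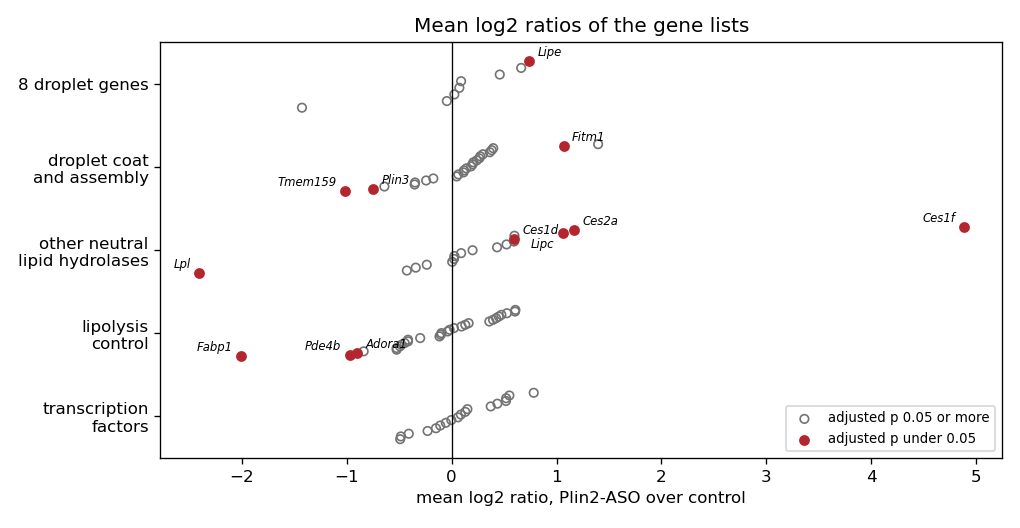
Mean log2 ratio of Plin2-ASO over control (horizontal axis) of the 8 droplet genes and of the genes of 4 further lists (rows), each point a gene. Filled points passed at an adjusted p under 0.05: Lipe, 3 droplet coat and assembly genes, 5 other hydrolases, 3 lipolysis control genes and no transcription factor.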

How the data were processed

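Liver RNA of 1 mouse pair was measured on each of 4 Agilent mouse arrays. Per the file headers, Feature Extraction 9.5.1.1 gave the mean spot intensity and median local background that were used, as deposited and before dye normalization. The deposited log10 ratios (red over green, after the software's own correction) and the log2 ratios of the series table that the authors deposited, which equal them, served as alternatives with the sign turned. The methods behind the series table are not given in the sources used here.

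With limma 3.58.1 in R 4.3.3, background was corrected (normexp, offset 50), ratios were normalized by loess, and outlier spots were set to missing. Probes well above background on at least 3 arrays in 1 channel were kept (27158), and each gene had its brightest probe measured on at least 3 arrays. The 18043 genes were tested against 0 with lmFit and eBayes (two-sided), with Benjamini-Hochberg adjustment at 0.05. The degrees of freedom were 7.21 for genes measured on 4 arrays and 6.21 for those on 3, as for Lipe. Without array 3 they were 8.17 for the 8 members. Standard errors are moderated. Levels per liver are log2 signals after Aquantile scaling. Arrays are pairs of mice, so p-values measure the spread between pairs and arrays together. The number of arrays limits the precision. The fit was tested on simulated data. Symbols come from RefSeq on GRCm38.p6. Members and lists were chosen with earlier results of these data known. Named genes were the members, perilipins, up to 6 called genes per list and the 3 nearest patterns of Lipe and Cidec. Adipocyte markers and genes that did not pass were named as values beside a member, some after their values were seen. The alternatives are listed in the closing section.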

Additional observations from a re-analysis of the deposited data

Results flagged for a closer look

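Of 36 sets of 4 values examined for the 8 genes and the perilipins, 1 had a value far from the rest, and chance gives about 1 in 20. The normalised log2 signal of Cideb in mouse 9, labelled Plin2-ASO on array 3, was 13.99, against 14.51 to 14.61 in the other livers labelled Plin2-ASO. The gap to the nearest was 0.842 of the whole range, above the 95% limit of Dixon's test for 4 values.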

How the results depend on the processing

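Of the 8 genes, 1 passed. The number was 2 with median centring (Cidec at -1.33 was the addition), 4 with array weights and 3 at an adjusted p under 0.1. Over all 18043 genes these settings called 1481, 7045 and 2994, against 1759 (9.75%) in the main setting. Of the 8 genes, 0 passed with the scanning software's ratios and 0 with no replicate block (the 8 channels as independent samples). In these 2 settings 4 of the 8 had an unadjusted p under 0.05, against 4786 and 4235 of all genes, of which 1423 and 1821 passed. Leaving out each array gave 0 to 4 for the 8 genes, 351 to 5906 for all genes, 0 to 8 for droplet coat and assembly, 3 to 8 for the other hydrolases, 1 to 15 for lipolysis control and 0 to 7 for the transcription factors. Array weights gave 7045, 12, 11, 18 and 7 for these groups after the 8 genes, in the same order. An adjusted p under 0.1 gave 2994 for all genes, 5 for droplet coat and assembly, 7 for lipolysis control and 3 for the transcription factors. Droplet coat and assembly had 5 when scaled between arrays and 5 with no replicate block. Lipolysis control had 1 with the series table, and the transcription factors 1 with the mean of all kept probes. Signs turned for Abhd5 without array 3 (-0.10, up to 0.28 without array 4), G0s2 with array weights (-0.19) and without array 4 (-0.37, up to 0.40 without array 1), Pnpla2 with the mean of all kept probes (0.18) and without array 1 (0.029, down to -0.079 without array 4), and Pnpla3 scaled between arrays (-0.030), with array weights (-0.20) and without array 3 (-0.29, up to 0.17 without array 4). The cause was not tested. Cidec, Cideb, Lipe and Mgll kept their direction in all 18 recomputed settings, with means of -2.15 to -0.94, 0.50 to 0.95, 0.67 to 0.95 and 0.37 to 0.54. Lipe also lost its call with the software's ratios (adjusted p = 0.0569) and with no replicate block (0.0589). Its probe measured on all arrays was added as a choice after the data were seen and left 1 of the 8 genes past the threshold.

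Each array holds its own pair of mice, so pairing is part of every ratio. No background correction, a normexp offset of 16, no filter and a strict filter on dim probes, outlier spots kept, eBayes with trend and robust, and the other settings not named above left these counts within 1.5 times. A slide block was not possible, since all arrays share 1 slide. Signal over background limits the third Mgll probe, which was not above background in 7 livers, and the Pnpla3 probe was above it but dim.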
